A study of Mus musculus with 9 samples.

Results

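Of the 14236 circRNA probes on the array, 553 (3.88%) stayed within a 2-fold range across normal, ischemic and postconditioned mouse liver. These stable circRNA probes were chosen from the measured values themselves. A probe had to be flagged as well above background on all 9 arrays, and its highest and lowest normalized log2 signal had to differ by at most 1. All 9 arrays entered the choice, so the levels and differences below describe the chosen probes and are not tests of their stability. The arrays held liver RNA of male C57BL/6 mice aged 8 weeks, with 3 livers in each of 3 groups. Livers of the normal (N) group, labelled as control, were from mice whose abdomen was opened while blood flow to the liver was kept. The I/R group had 1 h of partial liver ischemia and 4 h of reperfusion. The IPO group was treated likewise, except that 3 short cycles, with 5 s of reopened and 5 s of blocked flow in each, preceded lasting reperfusion.

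CircRNAs are RNA molecules whose ends the splicing machinery has joined into a ring. Without free ends they resist exonucleases, and RNase R was used here to digest linear RNA before labelling. Comparisons of RNA between injured and uninjured tissue by qRT-PCR need a transcript whose level does not move with the injury, and linear mRNAs such as GAPDH, a glycolytic enzyme, usually serve for this. The comparison asks how many circRNAs held their level through I/R and IPO, how abundant they were, and which differences between the groups remained among them. Probes are known here by number alone, since the files pair none with a circRNA name, a host gene or a sequence. In whole liver, fewer cells of a type and less RNA per cell cannot be told apart.

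The I/R arrays stood apart before any probe was chosen. Detected circRNA probes numbered 12097 to 12661 on the N and IPO arrays, while I/R 1 had 8088, I/R 2 had 5489 and I/R 3 had 13207. Among the stable probes, I/R 1 had a median intensity before normalization of 37.0, I/R 2 of 32.1 and I/R 3 of 217, and the N and IPO arrays lay between 82.3 and 126. The files show 4 scans. I/R 1, I/R 2 and IPO 3 were each scanned alone, and the other 6 arrays together in scan 1. IPO 3 shared its day with scan 1, whereas the dim arrays I/R 1 and I/R 2 were scanned on 2 other days. Whether these were also labelled or hybridized separately is not given in the sources used here. A limma fit with the scan as a block rests on the arrays of scan 1. I/R 3 is the only I/R array there, so the calls of this fit for the I/R comparisons are not given. For IPO against N it gave 0 adjusted calls among the 553, beside 0% of all tested probes. The part of the dimness of I/R 1 and I/R 2 was not tested, and values for scan 1 alone and without the dim arrays are given where they bear on a result. The labels describe separate frozen livers. The p-values measure the spread between their arrays, which also holds any difference between scans.

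Of all circRNA probes, 5272 (37.0%) passed the background flag on all 9 arrays, and 10.5% of these were stable. Of the detected probes, 10 had a spot flagged as an outlier and could not be assigned, and none of these stayed within the range when the flagged spots were kept. Only 31 probes had a range of 0.5 or less. The range of the stable probes had a median of 0.83, with quartiles of 0.70 and 0.93, so most of them lay in the upper part of what the rule allowed. For the 4709 other probes detected on every array the median range was 1.80. Without I/R 3 the number of stable probes rose from 553 to 1511, without I/R 2 to 1131 and without I/R 1 to 855. With any one N or IPO array left out it was between 570 and 635. Without both I/R 1 and I/R 2 it was 3750, and within scan 1 alone 4388. The background correction moved it too, to 2458 with normexp and 1330 with the raw signal.

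The ranges ran on without a gap at the limit. ASCRP4005084, with a range of 0.9986, and ASCRP4000773, with 0.9982, were the last probes inside, and ASCRP4010909 (1.0004) and ASCRP4014078 (1.0004) the first outside. ASCRP4005084 gave log2 signals of 6.37, 6.41 and 6.31 in N, 6.99, 6.76 and 5.99 in I/R, and 6.49, 6.04 and 6.81 in IPO. ASCRP4010909 gave 7.07, 7.19 and 7.23 in N, 7.39, 7.28 and 8.02 in I/R, and 7.11, 7.10 and 7.02 in IPO. In the former, I/R 1 and I/R 3 lay at opposite ends, and in the latter a single array, I/R 3, was above all others.

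The signals of most stable probes were close to those of the other probes detected on every array. The mean log2 signal of the stable probes had a median of 6.49, with quartiles of 5.89 and 7.41. That of the other detected probes had a median of 6.76, with quartiles of 5.89 and 7.82. Over all circRNA probes the median was 4.71. The median stable probe was at the 78.1st percentile of all circRNA probes but at the 43.0th percentile of those detected on every array. The signals of the stable probes thus lay slightly below the middle of those of the well-detected ones. These are signals of different probes, and the amounts of their circRNAs were not compared. No stable probe lay below the 54.6th percentile of all probes. On I/R 2, the array with the fewest detected probes, no probe with a normalized log2 signal under 5.27 was well above background. A probe dimmer than this in the other groups could therefore be a member only through a higher value on I/R 2, and the N mean of 24 members was below it. Of the detected probes with a mean log2 signal under 5, 0.692%, or 2 of 289, were stable. Of the detected probes with a mean log2 signal of 5 to 6, 13.4% were stable, and the share was 13.0% at 6 to 7, 9.73% at 7 to 8, 6.02% at 8 to 10 and 8.15%, or 15 of 184 probes, at 10 to 12. At 12 and above it was 20.3%, or 14 of 69 probes.

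The smallest range under the rule, 0.13 on the log2 scale, was that of ASCRP4011625. Its log2 signals were 8.32, 8.37 and 8.33 in N, 8.38, 8.32 and 8.44 in I/R, and 8.44, 8.45 and 8.45 in IPO. All 3 IPO values lay above all N values, and the I/R values overlapped the N values. Over the alternatives with normalization between arrays, its I/R minus N of 0.04 ran from 0.006 to 0.37. Its IPO minus I/R of 0.07 ran from -0.23 to 0.10. Before normalization the same probe read 403, 283 and 380 in N, 148, 121 and 910 in I/R, and 369, 460 and 451 in IPO. Its steadiness is thus a property of its rank on each array.

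The next probes by range were ASCRP4006578 (0.34), ASCRP4010719 (0.35) and ASCRP4008772 (0.35). Over the alternatives with normalization between arrays, their ranges reached 0.47, 0.40 and 0.36. That of ASCRP4011625 reached 0.49, so its first place was not held throughout. ASCRP4006578 read 8.03, 7.94 and 8.19 in N, 7.93, 8.02 and 7.99 in I/R, and 7.88, 8.19 and 8.22 in IPO. The 3 groups of this probe overlapped, and the I/R values were the closest together. The dimmer ASCRP4010719 read 5.42, 5.35 and 5.59 in N, 5.69, 5.34 and 5.38 in I/R, and 5.50, 5.58 and 5.56 in IPO. ASCRP4008772 gave 6.14, 5.96 and 6.15, then 6.11, 6.02 and 6.12, then 6.31, 6.09 and 6.29 in the same order of groups, with IPO 1 and IPO 3 highest. The I/R mean of ASCRP4010719 was 0.02 above its N mean, and in ASCRP4008772 both means were 6.08.

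Among the 10 brightest circRNA probes of the array, 6 were stable by the rule. The brightest, ASCRP4006710, held the first rank on 7 arrays and read 17.83 there, but 17.26 on both I/R 1 and I/R 2. Second was ASCRP4006342, with 17.43 on each N array, 17.42, 17.83 and 17.26 in I/R, and 17.26, 17.26 and 17.43 in IPO. At these ranks quantile normalization assigns the same few values to every array, and an identical value says that the rank was equal. ASCRP4004008 read 16.96, 16.96 and 17.26 in N, 17.83, 17.42 and 17.43 in I/R, and 16.96 on each IPO array, so that all I/R values exceeded all others. ASCRP4013042 read 16.56 on each N array, 16.95, 16.95 and 16.96 in I/R, and 16.56, 16.36 and 16.36 in IPO, again with I/R above the other groups. The difference of 0.50 between I/R and N at ASCRP4004008 was 0.33 without I/R 1 and 0.24 without both dim arrays. Over the alternatives with normalization between arrays, the range reached 1.70 at ASCRP4006342, 1.70 at ASCRP4004008 and 1.01 at ASCRP4013042. These values are outside the limit, while ASCRP4006710 reached 0.83. The 2 brightest circRNAs outside the stable set were ASCRP4012684, with a range of 1.98, and ASCRP4011502, with 1.11.

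At the dim end were ASCRP4000805, with a mean of 4.97, and ASCRP4008780, with 4.99. ASCRP4000805 read 4.96, 5.31 and 4.80 in N, 5.60, 5.45 and 4.62 in I/R, and 4.67, 4.61 and 4.67 in IPO. I/R 3 was level with IPO here. ASCRP4008780 read 4.75, 5.17 and 4.83 in N, 5.27, 5.41 and 5.27 in I/R, and 4.91, 4.83 and 4.43 in IPO. All N and IPO values of ASCRP4008780 were below the lowest detected level of I/R 2, and all but N 2 of ASCRP4000805, so that a higher value on I/R 2 was a condition of their membership and nothing is read from it.

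Between the I/R and N groups, the remaining difference was small, as the limit on the range requires. The median of I/R minus N over the 553 probes was 0.08 on the log2 scale, with 346 probes higher and 207 lower in I/R, and the median size was 0.20, a 1.15-fold difference. Over all 12813 circRNA probes tested, those well above background on 3 or more arrays, the median difference was 0.005. Among the other probes detected on every array it was 0.26, with a median size of 0.57. Of the stable probes, 314 differed by at most 0.25 and 54 by more than 0.5, of which 41 were higher and 13 lower in I/R. The requirement of detection on I/R 2 favours dim members that are higher in I/R, and over the 390 members with a mean log2 signal of at least 6 the median was 0.05, with 221 higher and 169 lower. For the same 553 probes, normalized again without I/R 3, the median difference was 0.14, without both dim arrays it was -0.00014, and within scan 1 it was 0. In both latter settings I/R 3 is the I/R array. In 80 probes all I/R values exceeded all N values and in 29 all were below, together 19.7% of the stable probes, beside 26.7% of all tested probes without overlap. By limma, 0 of the 553 had an adjusted p below 0.05, beside 5.95% of all tested probes. Without I/R 3 it was 18 of the 553, beside 34.6% of all probes tested in that setting. An unadjusted p below 0.05 was found in 17, beside 25.3%. The methods combine that p with a 2-fold change, and 0 were called so beside 19.4%, since a range of at most 1 leaves no room for such a call. The rule used these same values, so nothing is read from the counts.

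The largest remaining increase in I/R was at ASCRP4003900. It read 6.42, 6.20 and 6.24 in N, 7.04, 7.14 and 7.16 in I/R, and 6.28, 6.50 and 6.34 in IPO, which puts I/R 0.83 above N and IPO 0.74 below I/R. Every I/R array was above every other array. ASCRP4001402 followed, at 9.55 ± 0.20 (SD, n = 3) in N, 10.32 ± 0.08 (SD, n = 3) in I/R and 9.69 ± 0.26 (SD, n = 3) in IPO, a difference of 0.77 between I/R and N. The largest decreases were at ASCRP4005425, with 13.43 ± 0.16 (SD, n = 3) in N and 12.68 ± 0.11 (SD, n = 3) in I/R, and at ASCRP4005997, with 7.50 ± 0.09 (SD, n = 3) and 6.80 ± 0.21 (SD, n = 3). In ASCRP4005425 the IPO arrays read 13.44, 12.96 and 13.03, and in ASCRP4005997 they read 7.24, 7.29 and 7.33, between the other groups or overlapping N. In all 4 of these probes the I/R and N values did not overlap, although the probes met the rule. With scaling by the 75th percentile in place of quantile normalization, the difference at ASCRP4005425 was -0.07 and that at ASCRP4001402 was 1.29. With normexp background correction the difference at ASCRP4003900 was 0.51, and within scan 1 that at ASCRP4005997 was -0.46.

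The comparison of IPO with I/R shares the 3 I/R arrays, and their condition of detection, with the former one. The median of IPO minus I/R was -0.09, with 217 probes higher and 336 lower in IPO, and the median size was 0.24. Over the members with a mean of at least 6 the median was -0.05. Over all members it was -0.15 without I/R 3, -0.0034 without both dim arrays and -0.024 within scan 1. Of the stable probes, 289 differed by at most 0.25, 12 were higher by more than 0.5 and 50 lower. Groups did not overlap in 138 probes, 37 with IPO above and 101 with IPO below, beside 27.8% of all tested probes. By limma, 0 had an adjusted p below 0.05 beside 8.03% of all tested probes. Without I/R 3 it was 23, beside 36.6% of all probes tested in that setting. An unadjusted p below 0.05 was found in 15 beside 27.3%, and 0 met the thresholds of the methods beside 21.4%. The highest differences were at ASCRP4001253 (0.65) and ASCRP4005481 (0.56). ASCRP4001253 read 6.38, 6.11 and 6.26 in N, 5.60, 5.71 and 5.62 in I/R, and 5.92, 6.39 and 6.57 in IPO, so that the I/R arrays were the lowest and close to each other. With normexp its difference was 0.39, and within scan 1 that at ASCRP4005481 was 0.36. The lowest difference was at ASCRP4005346 (-0.75), which read 7.88, 7.86 and 7.95 in N, 8.60, 8.45 and 8.55 in I/R, and 7.93, 7.61 and 7.81 in IPO, and the next at ASCRP4003900 above.

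The smallest differences were between the IPO and N groups. The median of IPO minus N was -0.003 and the median size 0.12, a 1.09-fold difference, and 450 of the 553 probes (81.4%) differed by at most 0.25. Only 3 differed by more than 0.5. The other probes detected on every array showed the same order of comparisons. Their median size was 0.20 for IPO minus N, 0.57 for I/R minus N and 0.63 for IPO minus I/R. The closeness of IPO and N was thus not particular to the stable probes. Groups did not overlap in 58 stable probes (10.5%), beside 10.2% of all tested probes. Here limma called 0 of the 553 at an adjusted p below 0.05, beside 0% of all tested probes. At an unadjusted p below 0.05 it called 0 beside 0.866%, and at the thresholds of the methods 0 beside 0.523%. The highest values were at ASCRP4007740, with 7.31, 7.42 and 7.96 in N, 7.48, 7.75 and 8.02 in I/R, and 8.26, 8.06 and 7.99 in IPO, a difference of 0.54, and at ASCRP4010650, with a difference of 0.53. In ASCRP4007740, N 3 read close to the IPO arrays while N 1 and N 2 were lower. The lowest were at ASCRP4010853 (-0.51), with 5.88 ± 0.10 (SD, n = 3) in N and 5.37 ± 0.12 (SD, n = 3) in IPO, and ASCRP4007563 (-0.50), with 5.24 ± 0.39 (SD, n = 3) and 4.75 ± 0.07 (SD, n = 3). With normexp the difference at ASCRP4010650 was 0.31, at ASCRP4010853 -0.18 and at ASCRP4007563 -0.21.

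The spread that remained in the stable probes was mainly among the I/R arrays. The median range within a group was 0.53 in I/R, 0.36 in IPO and 0.32 in N. In the other probes detected on every array it was 1.32, 0.58 and 0.47, so a wider I/R group was not particular to the stable probes. The median distance between the highest and the lowest group mean of the stable probes was 0.31. An I/R array gave the highest or the lowest of the 9 values, or both, in 458 stable probes (82.8%). This share was not counted in the other probes. I/R 1 was highest in 143 stable probes and I/R 3 lowest in 131. The mean distance of a value from its probe's mean was 0.28, 0.23 and 0.30 for the I/R arrays 1, 2 and 3, and between 0.16 and 0.19 for the N and IPO arrays. The I/R arrays did not all deviate in the same direction. I/R 1 and I/R 2 lay on one side of the N mean and I/R 3 on the other in 188 probes, while all 3 lay on the same side in 229.

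Each array was also looked up for probes chosen without it. The rule was applied to 8 arrays under the normalization over all 9, and the probes found within the range on the array left out are then always the 553. Of the probes chosen without an N array, between 91.9% and 93.9% stayed within the range on that array, and without an IPO array between 86.4% and 89.9%. For I/R 1 the share was 67.9% of 815 probes, for I/R 2 51.0% of 1084 and for I/R 3 37.4% of 1480. On I/R 2 61.2% of the chosen probes were well above background, against 100% on I/R 1 and I/R 3, and of those detected on I/R 2 83.4% were within the range. The median distance of the left-out value from the mean of the other 8 arrays, over probes well above background there, reached 0.77 for I/R 3, 0.46 for I/R 1 and 0.28 for I/R 2, and at most 0.23 for any N or IPO array.

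Probes chosen from uninjured livers alone were next looked up in the other groups. The 3 N arrays by themselves gave 10401 stable probes. Between 87.3% and 91.6% of these stayed within the range when an IPO array was added, 38.2% when I/R 1 was added, 28.3% with I/R 2 and 52.6% with I/R 3. These shares count loss of detection as well as a change of level, since the share detected was 67.7%, 46.2% and 99.3% for the I/R arrays 1, 2 and 3. Over the detected probes alone the shares within the range were 56.4% for I/R 1, 61.3% for I/R 2 and 52.9% for I/R 3, and 88.4% to 92.8% for the IPO arrays. The detected ones among them lay above the N mean by a median of 0.38 in each of the dim arrays I/R 1 and I/R 2, and by 0.07 in I/R 3. No detected probe lay below 4.22 on I/R 1 or 5.27 on I/R 2. Detection there favours higher values, so no direction is read from these medians. The 6 N and IPO arrays gave 7618 stable probes, of which the 553 are 7.26%. The 3 I/R arrays alone gave 2027, of which the 553 are 27.3%. By the rule the 553 belong to each of these sets, so the shares restate the set sizes and are not compared.

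The ratio between a pair of circRNAs on the same array is not changed by a constant that scales the array. For each stable probe, the SD over the 9 arrays of its log2 ratio to every other stable probe was computed on the intensities before normalization and averaged. This ratio SD had a median of 0.38 over the stable probes and a 5th to 95th percentile span of 0.32 to 0.49, against a median of 0.63 for the other detected probes measured against the same 553. The 553 were chosen for a small range on these same 9 arrays, which favours low ratio SDs among them. The gap is thus no separate measure of their stability, and nothing is read from it. ASCRP4011885 (0.29), ASCRP4004998 (0.29), ASCRP4008343 (0.29) and ASCRP4008165 (0.30) had the lowest values. Of the 50 probes with the lowest ratio SD and the 50 with the smallest range, 25 were shared, which is 50% of each list. In order of ratio SD, ASCRP4011625, which has the smallest range, held place 5 and ASCRP4006710, the brightest, place 459.

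ASCRP4008343 combined a low ratio SD with a small range of 0.39. It read 6.77, 6.86 and 6.82 in N, 6.92, 6.87 and 6.86 in I/R, and 6.53, 6.82 and 6.70 in IPO, with IPO 1 lowest. ASCRP4011885 read 5.70, 5.77 and 5.80 in N, 6.03, 5.90 and 5.91 in I/R, and 5.78, 5.61 and 5.72 in IPO, with all I/R values above all others. ASCRP4008165 was higher in I/R than in N by 0.39. For ASCRP4004998 the difference was 0.40, but all its N values were below the lowest detected level of I/R 2. Of these 4 probes, ASCRP4008343 had the smallest difference between I/R and N, at 0.07.

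The stable probes were also read as a common reference for the scale of each array. Relative to the mean of the N arrays, their mean log2 intensity before normalization was -1.45, -1.66 and 1.05 for the I/R arrays 1, 2 and 3, and between -0.34 and 0.27 for the N and IPO arrays. The median of all circRNA probes put the I/R arrays lower, at -1.88, -2.07 and 0.79, and the 75th percentile of all non-control spots at -1.68, -1.83 and 0.98. These scales rest on probes of unlike brightness, since the mean log2 signal had a median of 6.49 in the stable probes and 4.71 in all circRNA probes. The 50 stable probes with the smallest range gave -1.54, -1.78 and 1.06, between the full set and the 75th percentile on I/R 1 and I/R 2. Panels of 4 probes were compared as well. The 4 with the lowest ratio SD gave -1.43, -1.60 and 1.09, and the 4 with the smallest range gave -1.51, -1.80 and 1.08. Scaled by the stable probes, the median of I/R minus N over the 12813 tested probes was -0.14, against 0.005 after quantile normalization and 0.01 after scaling by the 75th percentile. For IPO minus I/R the values were 0.12, -0.01 and -0.05, and for IPO minus N -0.03, -0.01 and -0.04. The stable probes were chosen on these same arrays and had to be detected on I/R 2, which favours dim members higher in I/R. The choice thus bears on the medians scaled by them, and no direction is read from these.

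The shift of the I/R arrays before normalization was read at several levels. Stable probes with a mean log2 signal of 5 to 6 lay below the N mean in the dim arrays before normalization, at a median of -1.49 in I/R 1 and -1.74 in I/R 2, and the 15 at 10 to 12 were at -1.17 and -1.05. The 14 at 12 and above were at -0.99 and -1.22. In I/R 3 the shift was 0.90 at 5 to 6, 2.15 at 10 to 12 and 0.73 at 12 and above, so it did not rise throughout. After quantile normalization the median of I/R minus N was 0.30 in the 2 members under 5 and 0.17 in the 161 at 5 to 6. Detection on I/R 2 required a value of 5.27 or more, and the N mean of 24 members was below it. How far this bears on the 0.17 was not tested. The median was 0.05 at 6 to 7, 0.02 at 7 to 8, 0.07 at 8 to 10, 0.21 at 10 to 12 and 0.08 at 12 and above.

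Features that did not enter the rule were similar in the stable and the other detected probes. The median local background was 20 for the stable and 19.9 for the other probes, and the median spot width 49.3 and 49.4 in the units of the files. The error that the scanner software attaches to a spot had a median of 10.5% of the signal in the stable and 10.3% in the other probes. On I/R 2 this error had a median of 13.1% for the stable probes, on I/R 1 10.7%, and at most 10.1% on the other arrays. The probes were spread over the array, with quartiles of 53 and 145 for the row and 21 and 60 for the column, against 51 and 144 and 21 and 62 in the other probes. Of the detected probes next in number to a stable probe 10.6% were stable, against 10.5% of all detected probes.

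The technical spread among spots of an array was measured on other probes. Of the 94 other non-control probes of the array, each printed in 10 spots, 35 were well above background at every spot. The SD of a probe's spots within an array had a median of 0.11 on the log2 scale, and the highest and lowest spots differed by a median of 0.34.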

How the data were processed

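Per the labels and file headers, Cy3-labelled RNase R-digested liver RNA was hybridized to 9 one-colour arrays, and the authors deposited each spot's background-corrected intensity with its flags, made by Agilent Feature Extraction 11.0.1.1 and still without normalization between arrays. Here the processed intensity was transformed to log2 in R 4.3.3, outlier spots were left out, and limma 3.58.1 was used for quantile normalization of the 15176 non-control spots over the 9 arrays. Quantile normalization gives every array the same distribution, so a value states a probe's rank on its array. A joint limma fit (lmFit, eBayes) of all groups covered 12813 circRNA probes, those detected above background on 3 or more arrays, and p-values were adjusted by the Benjamini-Hochberg method. The fit and the selection were tested on simulated data, and no result of that test is given here. No batch term was used.

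The members and lists were chosen with earlier results of these data known. Named were the 4 probes with the smallest range, the 4 brightest and 2 dimmest, the 2 with the largest difference in each direction of each comparison, the 2 probes nearest to the limit on either side and the 4 with the lowest ratio SD. The alternatives covered the normalization, the background correction (normexp with an offset of 50, or the raw intensity), outlier spots, detection, the range limit, the filter, blocks, array weights and each array left out. CircRNA names, host genes and probe sequences were not analysed here, since the files pair none with a probe. Precision is limited by having 3 arrays per group.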

Additional observations from a re-analysis of the deposited data

How the results depend on the processing

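The removal of both I/R 1 and I/R 2, the restriction to scan 1 and that to members with a mean of at least 6 were chosen after seeing the data. The number of stable probes was 553 by the rule. It was 472 with 75th percentile scaling, 549 with quantile normalization over circRNA spots alone and 555 with outlier spots kept, and 418, 529 and 549 of the 553 were chosen again. It was 2458 with normexp and 1330 with the raw signal, and 31 with no normalization between arrays, of which 0 were among the 553. It was 1050 with no detection requirement, 1005 with detection on at least 7 arrays, 245 at a range of at most 0.8 and 1030 at 1.2. Choosing as many probes by SD kept 475. With each array left out it ranged from 570 to 1511, with 3750 without the 2 dim arrays and 4388 in scan 1 alone.

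The median log2 signal of the stable probes was 7.26 with normexp, 6.89 with the raw signal, 6.90 without the 2 dim arrays, 6.89 in scan 1, and 6.35 to 6.68 with each array left out. Their median difference between I/R and N was 0.13 with 75th percentile scaling, -0.00014 without the 2 dim arrays and 0 in scan 1, and ranged from 0.055 to 0.14 with each array left out. Between IPO and I/R these values were -0.17, -0.0034, -0.024 and -0.15 to -0.058. The cause of these movements was not tested.

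With limma, adjusted calls among the stable probes, first for I/R vs N and second for IPO vs I/R, numbered 3 and 4 with 75th percentile scaling (8.41% and 10.6% of all tested probes were called there), 19 and 18 with normexp (6.28% and 8.61%), 5 and 8 with the raw signal (7.11% and 9.64%) and 18 and 14 with array weights (36.9% and 35.4%). With each array left out they ranged from 0 to 18 and from 0 to 23, and both maxima were without I/R 3 (34.6% and 36.6%). In IPO vs N there were 0 in every alternative run, with 0 to 23 at an unadjusted p below 0.05. Equal replicate numbers are not said to pair the mice. Deviations of same-numbered arrays correlated at -0.47 to 0.18, which cannot settle whether mice were paired. With the scan as a block the I/R comparisons rest on I/R 3 alone, and their calls are not given. For IPO vs N that limma fit called 0 stable probes, with 4 at an unadjusted p below 0.05. With the replicate block 0 stable probes were called in each comparison, and 1, 1 and 0 had an unadjusted p below 0.05. Over all tested probes the block gave 160 calls for I/R vs N, against 762 without it, and 356 against 1029 for IPO vs I/R. Of 21 differences over 0.5 in size among the named probes, only IPO vs I/R at ASCRP4000805 changed sign, from -0.57 to 0.03 without the 2 dim arrays and 0.02 in scan 1. Of those between 0.25 and 0.5, IPO vs I/R at ASCRP4005425 went from 0.46 to -0.33 and at ASCRP4000773 from 0.30 to -0.03 with 75th percentile scaling, and at ASCRP4006710 from 0.38 to 0 without the 2 dim arrays.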

Other observations

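Before any normalization between arrays, 31 detected circRNA probes had a range of at most 1 over the 9 arrays, and 0 of them were among the 553 stable probes. Since they were chosen for this range on arrays of unequal brightness, their I/R differences after normalization and their absence from the 553 follow from the choice and are given as values alone. Relative to the N mean after quantile normalization, I/R 1 was higher by a median of 1.49 in them, I/R 2 was higher by 1.34, and I/R 3 lay at -0.59. Their range after normalization had a median of 2.11, and IPO minus N a median of -0.09.

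The same range was applied to the other non-control probes, which are not circRNA probes. Of the 35 that were well above background at every spot, 3 (8.57%) had probe means within a range of 1 over the 9 arrays, and the median range was 1.79.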
